A study of Mus musculus with 8 samples.

Results

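Pold1, Pole, Prim2, Ercc2, Brip1, Rtel1, Ddx11, Dna2, Mutyh and Nthl1 encode enzymes of DNA replication and repair that are known to hold an iron-sulfur cluster. The 10 genes were picked by gene symbol from the 55471 genes in the files, and all 10 passed the low-count filter that left 13953 genes for testing. Their RNA levels were read from mouse blastocysts of embryonic day 4.5 that differed in Isca2, which encodes a mitochondrial carrier protein used in building iron-sulfur clusters. There were 3 wild-type libraries (WT), 2 libraries without functional Isca2 on either allele (KO, Isca2 -/-) and 3 libraries in which both alleles carry the G77S substitution (G77S, Isca2 G77S/G77S). The labels name matings of superovulated Isca2 +/- females with Isca2 +/- males, followed by embryo culture in KSOM, for the series as a whole. They give neither the cross behind the G77S embryos nor the number of embryos, the sex, the litter or the batch of a library. Since no label describes the libraries of one group as separate cultures or litters, the p-values cover only the spread from library to library, part of which may be technical. The design asks how each of the 2 Isca2 states differs from WT and from the other.

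Iron-sulfur clusters are small groups of iron and sulfur atoms, usually held by cysteines, that act in electron transfer or keep a protein fold in shape. They are first built in mitochondria, and a separate cytosolic machinery passes them on to enzymes of the cytosol and nucleus. In replication and repair they sit in the catalytic subunits of polymerases delta and epsilon, the large subunit of primase, a family of DNA helicases, the nuclease Dna2 and some DNA glycosylases, the enzymes that cut a damaged base out of DNA. RNA level says nothing of whether the protein received its cluster, which was not measured here.

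The cysteines that hold the cluster are visible in the coding sequence of 3 of the genes, and these are printed because the cluster is what the 10 enzymes share. Each is given 5′ to 3′ on its coding strand, taken from the GENCODE transcripts of GRCm38, with the cysteine codons in capitals.
Mutyh: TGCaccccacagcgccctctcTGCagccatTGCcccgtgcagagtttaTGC
Nthl1: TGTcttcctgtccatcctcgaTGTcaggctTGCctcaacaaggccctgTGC
Pold1: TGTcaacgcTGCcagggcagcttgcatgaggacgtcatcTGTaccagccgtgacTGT
The Mutyh stretch lies at chr4:116817034-116817084 on the plus strand, in coding exon sequence of exon 10 of 16, and spans residues 261 to 277 of a protein of 515. That of Nthl1 lies at chr17:24638660-24638710 on the plus strand, in exon 6 of 6, and spans residues 278 to 294 of 300, at the very end of the protein. Both have 4 cysteines with 6, 2 and 5 residues between them, a spacing found in the longest coding transcript of 81 of 21562 genes (0.376%) and, among the 10 genes, in Mutyh and Nthl1 only. The Pold1 stretch lies on the minus strand of chromosome 7 and crosses a splice junction, from 44533204 to 44533250 in exon 26 and from 44532885 to 44532894 in exon 27 of 27. It spans residues 1056 to 1074 of 1105, with gaps of 2, 9 and 4 residues, a spacing found in 123 genes (0.57%) and in no other of the 10. A match of this kind describes letters and does not show that a cluster is bound.

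Each library held between 10323965 and 23842619 expected counts. Isca2 itself checked the labels: it was between 86.9 and 173 CPM (counts per library total after TMM scaling) in WT, 4.84 and 6.2 CPM in KO and between 89.1 and 133 CPM in G77S. In edgeR's quasi-likelihood test with Benjamini-Hochberg adjustment, used for every adjusted p below unless another tool is named, Isca2 fell in KO (log2 fold change -4.64, SE 0.41, adjusted p = 0.00387) and did not pass in G77S versus WT (-0.34, SE 0.29, adjusted p = 0.577). The deposited quantification assumed shorter fragments for all 3 G77S libraries (181.4 to 185.1 bases) than for the other 5 (242.7 to 291.1 bases), and a difference in library preparation cannot be told apart from the genotype there. Of the lineage markers, Krt8, Krt18 and Dab2 were abundant, but Sox2 of the epiblast and Gata4, Sox17 and Sox7 of the primitive endoderm were at 0 in every WT library. All 7 cumulus and granulosa markers were at 0 in all libraries, 4 blood markers summed to at most 0.884 CPM, and 7 oocyte markers summed to at most 24.9 CPM in WT, 8.69 in KO and 2.59 in G77S.

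None of the 10 genes passed the test in any comparison. Against WT, KO called 17 of the 13953 genes (0.122%) and G77S called 473 (3.39%), and G77S versus KO called 585 (4.19%). Read against these shares, 0 calls among 10 genes is near the background and does not show that the genes were level. Before adjustment, edgeR's p was under 0.05 for 0 of the 10 in KO versus WT, for Nthl1 in G77S versus WT and for Ercc2 in G77S versus KO. Over all genes 13.0%, 20.0% and 20.7% reached this, so 0, 1 and 1 of the 10 were below the background. In KO versus WT, DESeq2 also called 0 of the 10 (4.83% of all genes), though it gave Ercc2 no adjusted p. Limma called 0 there on log2(TPM + 1) (0.681%) and on log2(TPM + 0.1) (0.616%). In G77S versus WT, DESeq2 called Nthl1, where it called 11.4% of all genes. Limma on log2(TPM + 1) called Mutyh and Nthl1 against 10.5% of all genes, and with a pseudocount of 0.1 it called Ercc2, Mutyh and Nthl1 against 9.37%. In G77S versus KO, limma called Brip1 with the pseudocount of 1 (13.3% of all genes) and Ercc2 and Brip1 with 0.1 (12.5%). DESeq2 called 0 there (12.9% of all genes) and again gave Ercc2 no adjusted p.

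A second description is whether the CPM of 2 groups overlap. In KO versus WT, 1 of the 10 genes had no overlap, Nthl1, which was higher in KO, against 25.6% of all genes apart in either direction. In G77S versus WT, Prim2, Ercc2, Mutyh and Nthl1 were apart and higher in G77S (4 of 10, against 29.0% of all genes). In G77S versus KO, Pold1, Ercc2, Brip1, Mutyh and Nthl1 were apart and higher in G77S (5 of 10, against 44.9% of all genes). No gene of the 10 was apart and lower in any of the 3. The share in KO versus WT was below the background and the other 2 were near it. The median log2 fold change of the 10 was -0.14 in KO versus WT, 0.59 in G77S versus WT and 0.61 in G77S versus KO, beside -0.06, 0.03 and 0.10 over all genes tested. The KO and G77S comparisons with WT share the same WT libraries and are given side by side only.

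**Figure D1:**
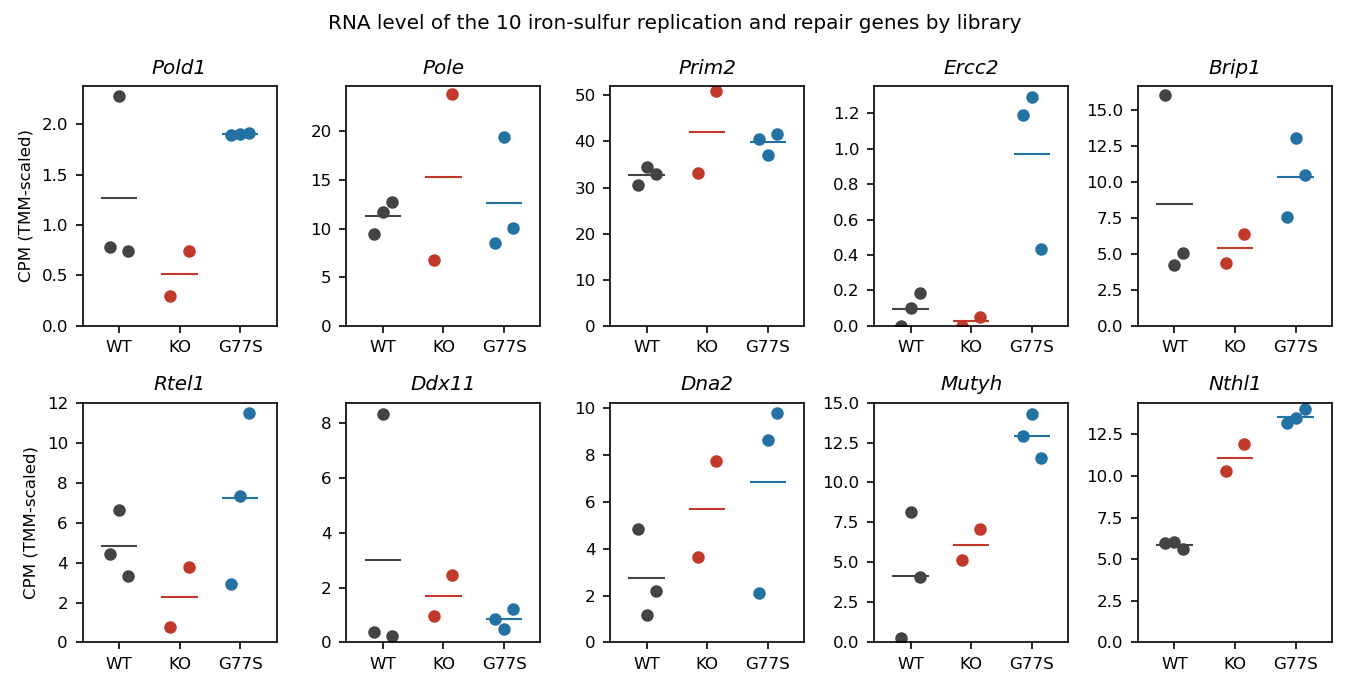
TMM-scaled CPM (vertical axis, from 0, a separate scale for each gene) of the 10 genes in the 3 WT, 2 KO and 3 G77S libraries; points are libraries and lines are group means. Nthl1 is lowest in the 3 WT libraries and highest in the 3 G77S libraries, whereas the highest values of Ddx11 and Brip1 each come from 1 WT library.

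**Figure D2:**
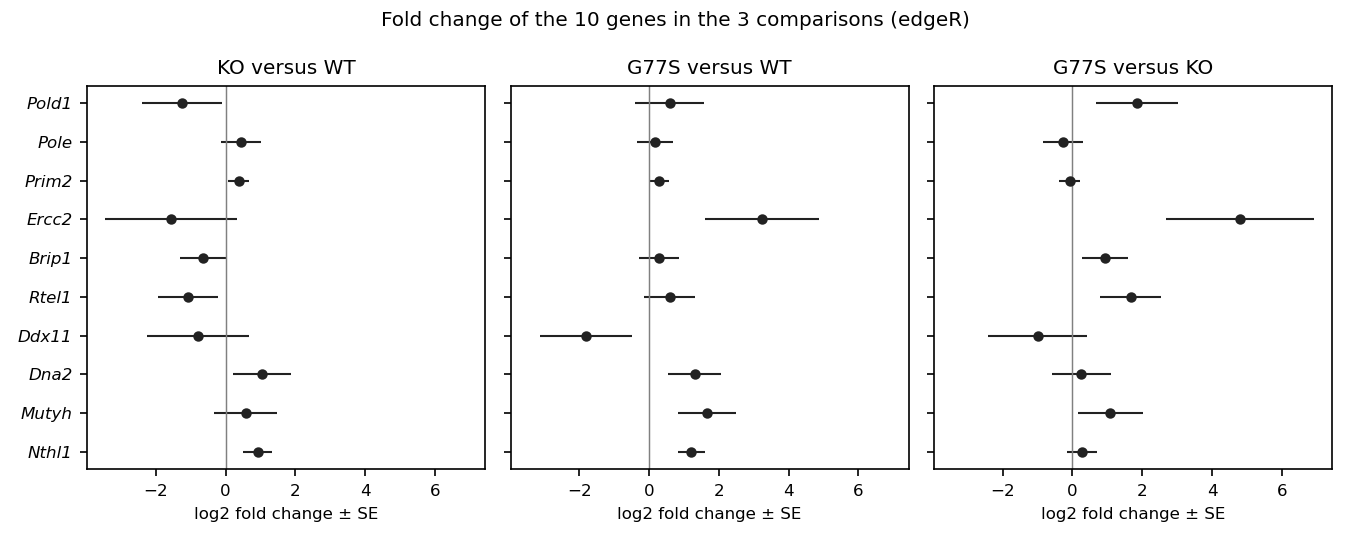
Log2 fold change of the 10 genes in each comparison, with bars of 1 SE from edgeR. Nthl1, Prim2 and Pole have the narrowest bars and Ercc2 and Ddx11 among the widest, and no gene passed an adjusted p of 0.05.

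Of the glycosylases, Nthl1 kept all 3 groups apart and Mutyh was highest in the G77S libraries. Nthl1 (chromosome 17, 24632680 to 24638837, plus strand) encodes the glycosylase that removes oxidised pyrimidines. It was at 5.97, 6.06 and 5.61 CPM in WT replicates 1, 2 and 3, at 10.3 and 11.9 CPM in KO replicates 1 and 2, and at 13.2, 13.5 and 14.0 CPM in G77S replicates 1, 2 and 3. The 3 groups did not overlap and stood in the order WT, KO, G77S. The fitted log2 fold change of Nthl1 was 0.92 in KO versus WT (SE 0.42, adjusted p = 0.387) and 1.21 in G77S versus WT (SE 0.39, adjusted p = 0.111). It was 0.28 in G77S versus KO (SE 0.43, adjusted p = 0.759), so the order of those 2 groups is within the error of the fit. DESeq2 gave 1.20 in G77S versus WT with an adjusted p of 0.0129, and over all alternatives for that comparison the value lay between 1.07 and 1.37 with adjusted p-values from 0.0129 to 0.273. On the TPM scale, which divides by transcript length, the order was the same: 5.26 to 6.68 in WT, 9.97 and 10.4 in KO, and 13.4 to 15.9 in G77S.

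Mutyh (chromosome 4, 116807723 to 116819440, plus strand) encodes the glycosylase that removes adenine paired with oxidised guanine. It was at 0.279, 8.14 and 4.08 CPM in WT, 5.14 and 7.10 CPM in KO, and 12.9, 14.3 and 11.5 CPM in G77S. Every G77S library lay above every WT and KO library, and the WT libraries were themselves spread from 5 counts in replicate 1 to 88 in replicate 3. For Mutyh the log2 fold change was 0.57 in KO versus WT (SE 0.90, adjusted p = 0.865) and 1.65 in G77S versus WT (SE 0.83, adjusted p = 0.303). It was 1.08 in G77S versus KO (SE 0.93, adjusted p = 0.564). Leaving out single libraries moved the G77S versus WT value between 1.09 and 2.55, with adjusted p-values from 0.182 to 0.516. Limma on log2(TPM + 1) gave 1.92 there (adjusted p = 0.032), where the median of all genes moved to 0.23.

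These libraries also differ in the embryo's lineages. The summed level of 7 trophectoderm markers was 3910 to 4740 CPM in G77S against 7270 to 11200 in WT and 7810 to 12800 in KO, and none of the 7 was at 0 in any group. Krt8 and Krt18 carried this sum. In G77S versus KO the log2 fold changes were -0.89 for Krt8, -1.46 for Krt18 and -3.75 for Elf5. The other 4 were positive there, at 1.22 for Cdx2, 0.71 for Gata3, 1.22 for Tfap2c and 0.73 for Eomes. In G77S versus WT 6 of the 7 were negative. By edgeR 2 of them were called lower, Krt18 (-1.2, adjusted p = 0.0222) and Elf5 (-4.43, adjusted p = 0.0475), beside 3.39% of all genes called. Elf5 was at most 0.954 CPM in G77S. The sum of 7 epiblast markers was 416 to 519 CPM in G77S, 355 to 404 in WT and 240 to 291 in KO. Its members differed in sign too, with Nanog at -1.13 and Pou5f1 at 2.57, Utf1 at 2.59 and Dppa4 at 1.42 in G77S versus WT, and Nanog at -2.69 and Utf1 at 3.33 in KO versus WT. The sum of 7 primitive endoderm markers overlapped between the groups. It was 565 to 1160 CPM in G77S, 1130 to 1460 in WT and 1010 to 1470 in KO. Dab2 carried this sum, at 1110 to 1430 CPM in WT, 958 and 1420 in KO and 528 to 1120 in G77S. Sox17, Sox7 and Pdgfra were at most 0.0558 CPM in WT. They reached 1.06, 2.23 and 3.92 CPM in KO and 2.59, 0.84 and 4.69 CPM in G77S. In KO versus WT 5 of the 6 tested markers were positive and edgeR called 0. In G77S versus KO 5 of the 6 were negative, and edgeR called Lama1 (-3.13, adjusted p = 0.0388). In bulk libraries, fewer cells of a type and less RNA per cell cannot be told apart, and the part of these shifts in the glycosylase values was not tested.

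The replicative polymerases and primase differed little between the groups or varied widely within them. Prim2 (chromosome 1, 33453810 to 33669795, minus strand), the large subunit of primase, which makes the RNA primers of each new strand, had the highest mean of the 10 genes on the length-corrected scale (17.7 TPM). It was at 30.6, 34.4 and 33.0 CPM in WT, 33.2 and 51.0 CPM in KO, and 40.6, 37.1 and 41.7 CPM in G77S. The G77S libraries lay above the WT libraries by a small margin, and KO replicate 2 was above all others. Prim2 had a log2 fold change of 0.37 in KO versus WT (SE 0.31, adjusted p = 0.675), 0.29 in G77S versus WT (SE 0.28, adjusted p = 0.627) and -0.08 in G77S versus KO (SE 0.31, adjusted p = 0.916). On the TPM scale every G77S library (20.7, 21.8 and 23.1) was above every WT (13.7 to 15.8) and KO library (13.4 and 18.9), and limma on log2(TPM + 1) gave 0.43 in G77S versus KO, the opposite sign to the CPM fit.

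Pole (chromosome 5, 110286306 to 110337474, plus strand) encodes the catalytic subunit of polymerase epsilon, the leading-strand polymerase. It was at 9.48, 11.7 and 12.7 CPM in WT, 6.79 and 23.8 CPM in KO, and 8.54, 19.4 and 10.1 CPM in G77S. The 2 KO libraries were the lowest and the highest of the 8, so the KO mean describes neither. Its KO versus WT value on the log2 scale was 0.44 (SE 0.58, adjusted p = 0.823) and became -0.73 without KO replicate 2. In G77S versus WT it was 0.17 (SE 0.52, adjusted p = 0.9), and -0.26 without G77S replicate 2.

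Pold1 (chromosome 7, 44532746 to 44548849, minus strand) encodes the catalytic subunit of polymerase delta, the lagging-strand polymerase, and was low. It had 14, 23 and 16 counts in WT, 5 and 14 in KO, and 27, 28 and 22 in G77S. Scaled, this was 0.781, 2.28 and 0.741 CPM in WT, 0.295 and 0.742 CPM in KO, and 1.89, 1.90 and 1.91 CPM in G77S. The G77S libraries lay above both KO libraries, and WT replicate 2 was above all others. Pold1 had a log2 fold change of -1.26 in KO versus WT (SE 1.15, adjusted p = 0.711), 0.59 in G77S versus WT (SE 0.98, adjusted p = 0.801) and 1.86 in G77S versus KO (SE 1.17, adjusted p = 0.404).

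Each of these enzymes works in a complex, so its TPM was also set against that of a partner subunit that holds no cluster in the same library. The Prim2 to Prim1 ratio was 0.259, 0.157 and 0.189 in WT, 0.147 and 0.18 in KO, and 0.445, 0.343 and 0.306 in G77S. Every G77S ratio was above every other, by 0.87 on the log2 scale against WT and 1.15 against KO, with an exact two-sided permutation p of 0.1 in both, the smallest that the design can give (0.3 after Benjamini-Hochberg adjustment over 9 tests). Prim1, the catalytic primase subunit, was at 71.0 to 107 CPM in G77S, 90.8 to 169 CPM in WT and 172 and 220 CPM in KO, and its fold change in G77S versus KO was -1.16 (SE 0.30, adjusted p = 0.0568). The Pold1 to Pold2 ratio was 0.0983, 0.11 and 0.123 in WT, 0.0303 and 0.0798 in KO, and 0.0618, 0.0396 and 0.0995 in G77S. Both KO ratios were under the WT ones (log2 difference -1.16, exact permutation p = 0.1, adjusted 0.3), while G77S overlapped WT (-0.81, exact permutation p = 0.2, adjusted 0.45). The Pole to Pole2 ratio was 0.193, 0.295 and 0.222 in WT, 0.219 and 0.606 in KO, and 0.203, 0.423 and 0.206 in G77S, with groups that overlapped (exact permutation p from 0.5 to 0.8). With these group sizes no ratio could reach 0.05.

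**Figure D3:**
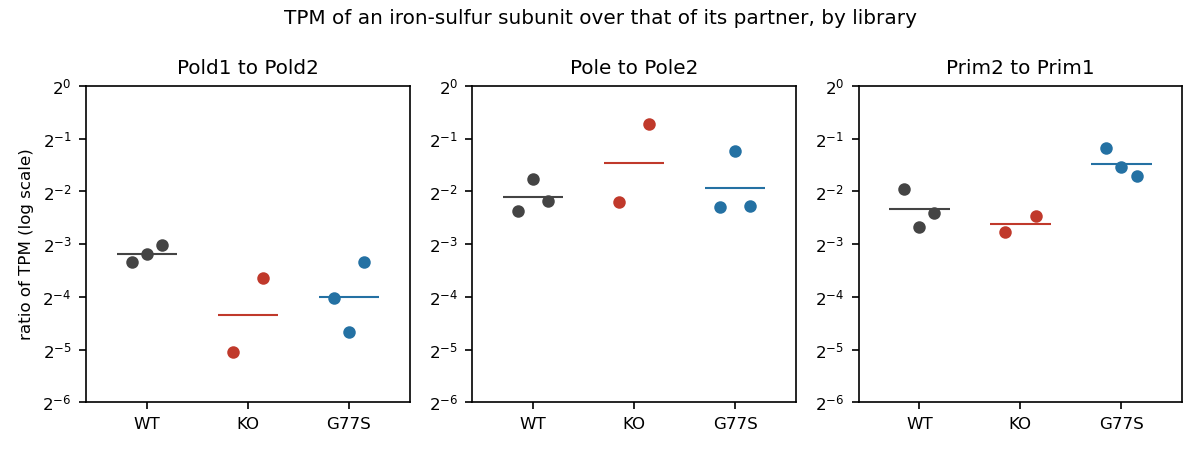
Ratio of the TPM of Pold1, Pole and Prim2 to that of a partner subunit (vertical axis, log scale) in each library; points are libraries and lines are geometric means. The 3 G77S ratios of Prim2 to Prim1 sit between 0.306 and 0.445, above all WT and KO ratios.

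The helicases were low or varied widely between libraries of one group. Ercc2 (chromosome 7, 19382010 to 19395694, plus strand) encodes XPD, the helicase of TFIIH that opens DNA in nucleotide excision repair. It had 0, 1 and 4 counts in WT, 0 and 1 in KO, and 17, 18.95 and 5 in G77S, that is 0 to 0.185 CPM in WT, 0 and 0.053 CPM in KO, and 1.19, 1.29 and 0.434 CPM in G77S. Every G77S library was above every other, but no library had more than about 1.3 CPM. The pooled counts gave a ratio of 10 for G77S to WT (95% interval 3.97 to 32.5, 41 against 5 counts) and of 36.2 for G77S to KO (6.15 to 1470, 41 against 1). For KO to WT the ratio was 0.277 (0.00586 to 2.48). These intervals cover counting error only, since amplified reads here carry no molecular identifiers. With the spread between libraries in the model, the adjusted p was 0.301 in G77S versus WT and 0.23 in G77S versus KO. Ercc3, the other TFIIH helicase, holds no cluster and was at 1.31 to 12.1 TPM over the 8 libraries. The ratio of Ercc2 to Ercc3 TPM was 0, 0.00429 and 0.0266 in WT, 0 and 0.00763 in KO, and 0.0473, 0.0571 and 0.12 in G77S, where all 3 were above every other. It was not tested, since a ratio of 0 has no logarithm.

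Brip1 (chromosome 11, 86058138 to 86201193, minus strand) encodes the Fanconi anaemia helicase FANCJ, a partner of BRCA1. It was at 16.1, 4.27 and 5.05 CPM in WT, 4.37 and 6.41 CPM in KO, and 7.56, 13.1 and 10.5 CPM in G77S. WT replicate 1 was above every other library, and the G77S libraries were above the remaining ones. The log2 fold change was -0.65 in KO versus WT (SE 0.66, adjusted p = 0.745) and 0.21 without WT replicate 1. It was 0.29 in G77S versus WT (SE 0.58, adjusted p = 0.837) and 0.94 in G77S versus KO (SE 0.66, adjusted p = 0.458). On the TPM scale WT replicate 1 was no longer high: the values were 2.11, 5.84 and 6.20 in WT, 1.28 and 2.25 in KO, and 7.55, 8.20 and 7.50 in G77S, and the G77S libraries lay above all others. Limma on log2(TPM + 1) gave 1.68 in G77S versus KO (adjusted p = 0.0441), while edgeR with transcript length offsets gave 1.60 without a call (adjusted p = 0.189).

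Rtel1 (chromosome 2, 181319739 to 181356616, plus strand) encodes a helicase that takes apart telomere loops. It was at 4.46, 6.65 and 3.34 CPM in WT, 0.768 and 3.76 CPM in KO, and 2.94, 7.34 and 11.5 CPM in G77S. KO replicate 1 was the lowest and G77S replicate 3 the highest, and all groups overlapped. The log2 fold change was -1.08 in KO versus WT (SE 0.85, adjusted p = 0.651), 0.59 in G77S versus WT (SE 0.73, adjusted p = 0.716) and 1.67 in G77S versus KO (SE 0.87, adjusted p = 0.301).

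Ddx11 (chromosome 17, 66123520 to 66152174, plus strand) encodes a helicase linked to sister chromatid cohesion. It was at 0.39, 8.34 and 0.232 CPM in WT, 0.945 and 2.44 CPM in KO, and 0.84, 0.476 and 1.21 CPM in G77S. WT replicate 2, with 84 counts, set the WT mean, and the 2 other WT libraries were the lowest of the 8. The log2 fold changes against WT, -0.80 in KO (SE 1.46, adjusted p = 0.888) and -1.80 in G77S (SE 1.32, adjusted p = 0.496), became 2.42 and 1.42 without that library.

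Dna2 (chromosome 10, 62947026 to 62974185, plus strand) encodes a nuclease and helicase that trims Okazaki fragment flaps and resects DNA ends. It was at 4.85, 1.19 and 2.18 CPM in WT, 3.66 and 7.74 CPM in KO, and 2.10, 8.64 and 9.80 CPM in G77S. The 2 highest values were in G77S, but G77S replicate 1 lay below WT replicate 1. The log2 fold change was 1.05 in KO versus WT (SE 0.83, adjusted p = 0.652), 1.31 in G77S versus WT (SE 0.76, adjusted p = 0.373) and 0.26 in G77S versus KO (SE 0.84, adjusted p = 0.898).

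Ordered by mean TPM over the 8 libraries, the 10 genes ran Prim2 (17.7), Pole (14.7), Nthl1 (10.3), Mutyh (5.64), Brip1 (5.12), Rtel1 (4.26), Dna2 (1.71), Pold1 (1.49), Ddx11 (0.361) and Ercc2 (0.219). Prim2 stood at the 74.4th percentile of the genes tested and Ercc2 at the 6.79th. The range of each gene over the 8 libraries overlapped that of its neighbours in this order. Compared within each library, Nthl1 was above Mutyh in 8 of 8, Rtel1 above Dna2 and Pold1 above Ddx11 in 7 of 8, and Prim2 above Pole in 6 of 8, while the other 5 steps held in 4 or 5 of 8.

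The quantification assigned unusual transcript lengths to many of these genes, which separates their counts from their TPM. For Brip1, the abundance-weighted length was 6931 bases in WT replicate 1, that of its longest coding transcript, but 773.4 and 827.2 bases in the other WT libraries. For Mutyh it was 689 bases in WT replicate 1, 41.7% of the longest coding transcript, and 1353 to 1709 bases elsewhere. The highest length was at least 2 times the lowest in 6 of the 10 genes, beside 19.1% of all genes tested. One of the 6 is Ercc2, whose length carries no information in the 2 libraries with 0 counts. Pole stayed between 11.5% and 17.5% of its longest coding transcript in every library, Pold1 between 18.7% and 44.4% and Rtel1 between 19.8% and 40.5%. The estimated abundance of these 3 genes was thus mostly on short annotated transcripts, several of which are not coding. A long transcript gives more reads per molecule, so these lengths do not give the share of reads on short transcripts. The level of the full coding RNA is not known from these values. Prim2, Ddx11 and Nthl1 were near full length in every library, between 90.8% and 101%. Genes that overlap the 10 on either strand reached at most 0.35 CPM, the level of Klc3, over Ercc2, in G77S replicate 1. Klc3 was at 0.136 and 0 CPM in G77S replicates 2 and 3 and at 0 in all WT and KO libraries. Ercc2 itself was at 1.19, 1.29 and 0.434 CPM in G77S, and the part of this overlap in its values was not tested. The other overlapping genes reached at most 0.139 CPM.

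**Figure D4:**
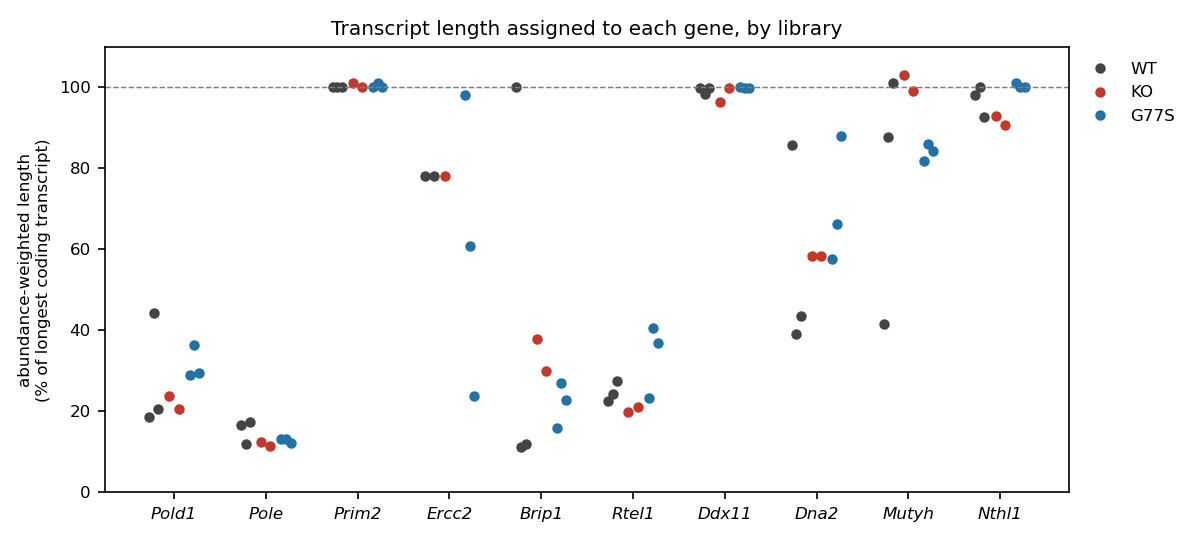
Abundance-weighted transcript length as a percent of the longest coding transcript (vertical axis) for each gene and library, libraries with 0 counts left out; the dashed line is 100%. Prim2, Ddx11 and Nthl1 stay near the line, Pole stays under 17.5%, and Brip1 reaches the line in 1 WT library only.

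The genes that work with these enzymes were read from 11 lists of replication, repair and related genes. In KO versus WT, edgeR called 0 of the 121 tested genes of the 11 lists, with 18 at an unadjusted p under 0.05. DESeq2 called 6 (4.96%, beside 4.83% of all genes) and limma 1 with either pseudocount (0.826%, beside 0.681% and 0.616%). Over all genes 13.0% were at an unadjusted p under 0.05, beside 14.9% of the lists. Among the most abundant genes, Pcna, the sliding clamp of the polymerases, was at 188 to 224 CPM in WT and 281 and 390 CPM in KO (log2 fold change 0.70, SE 0.22, adjusted p = 0.213). Apex1, the endonuclease that acts after Mutyh and Nthl1, was at 114 to 147 CPM in WT and 252 and 264 CPM in KO (1.02, SE 0.22, adjusted p = 0.115). Of 10 cell division genes, 10 had negative values in KO versus WT, with a median of -0.40, and 9 of 10 when transcript length offsets were used.

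In G77S versus WT, edgeR called 5 of the 121 genes (4.13%, beside 3.39% of all genes), DESeq2 19 (15.7%, beside 11.4%) and limma on log2(TPM + 1) 25 (20.7%, beside 10.5%). By edgeR, whose share is near the background, 1 of 12 replicative helicase genes rose, Mcm7 (log2 fold change of 1.5, SE 0.33, adjusted p = 0.0364), which encodes a subunit of the ring that unwinds DNA ahead of the polymerases. It was at 16.4 to 28.1 CPM in WT, 12.0 and 13.6 CPM in KO, and 48.9 to 75.1 CPM in G77S, where the 12 genes had a median of 0.59. In cohesin and fork protection, 1 of 10 rose, Timeless (3.30, SE 0.62, adjusted p = 0.0195), the fork protection factor, from 0.695 to 3.79 CPM in WT to 16 to 21.6 CPM in G77S. Of 12 base excision repair genes tested, 1 rose, Xrcc1 (1.78, SE 0.41, adjusted p = 0.0454), the scaffold that brings in the ligase, and 10 had positive values with a median of 0.61. Of 12 genes of DNA damage signalling and p53, 1 rose, Gadd45a, which had 0 counts in WT and 111 in G77S (adjusted p = 0.0419). Against 3 counts over the WT group this was at least 45.3-fold higher, a bound that covers counting error only. Gadd45a was low in G77S too, at 2.08 to 3.5 CPM. Of the 6 fits that left out a WT or G77S library, 5 lost Mcm7 (all but that without WT replicate 1, adjusted p up to 0.154) and 4 lost Timeless (all but those without WT replicate 1 or 2, up to 0.0801). All 6 lost Xrcc1 (up to 0.166) and Gadd45a (up to 0.145), with the direction of each of the 4 genes kept.

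The cytosolic delivery of clusters was represented by 10 genes. Ciao2a was at 3000 to 3740 CPM in WT, 3490 and 3620 CPM in KO, and 1160 to 1980 CPM in G77S. In G77S it fell by 1.22 on the log2 scale from WT (SE 0.22, adjusted p = 0.0165) and by 1.27 from KO (SE 0.24, adjusted p = 0.0188), and edgeR called no other of the 10 in any comparison. In G77S versus KO, DESeq2 called 2 of the 10 (20.0%, beside 12.9% of all genes). Limma called 4 there with either pseudocount (40.0%, beside 13.3% and 12.5%) and 2 in G77S versus WT (20.0%, beside 10.5% and 9.37%). The edgeR calls of Ciao2a were lost in 4 of 6 and 4 of 5 fits that left out a library, with adjusted p-values up to 0.0956 and 0.0923. Its paralogue Ciao2b, known for delivery to the DNA enzymes, was at 0.41 in G77S versus WT and was not called, nor was the adaptor Mms19 (-0.43).

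In G77S versus KO, edgeR called 6 of the 121 genes (4.96%, beside 4.19% of all genes), DESeq2 20 (16.5%, beside 12.9%) and limma on log2(TPM + 1) 30 (24.8%, beside 13.3%). Before adjustment, edgeR's p was under 0.05 for 37 of the 121 (30.6%, beside 20.7% of all genes), above the background. Single lists ran from 0 of 11 end resection and telomere genes to 6 of 10 cell division genes (60.0%). By edgeR's adjusted calls, whose share was again near the background, 2 of 12 replicative helicase genes rose. These were Mcm7 (log2 fold change 2.21, SE 0.39, adjusted p = 0.0128) and Cdc45 (1.22, SE 0.29, adjusted p = 0.0443). Fen1, the flap nuclease of Okazaki fragments, rose by 1.98 (SE 0.48, adjusted p = 0.0475) as 1 of 11 clamp and Okazaki genes, and Plk1, a mitotic kinase, rose by 2.99 (SE 0.54, adjusted p = 0.0155) as 1 of 10 cell division genes. Ccnh, the cyclin of TFIIH's kinase, fell (-1.17, SE 0.26, adjusted p = 0.0352) as 1 of 9 TFIIH partners, from 208 and 280 CPM to 84.0 to 122 CPM. Limma on log2(TPM + 1) gave -0.43 for Ccnh (adjusted p = 0.317), with -0.44 at the pseudocount of 0.1 (0.321), and length offsets gave -0.93 (0.0781), all without a call. All 10 cell division genes had positive values, with a median of 1.01. The summed level of these 10 was 2450 to 3320 CPM in G77S, 941 and 2490 CPM in KO and 1680 to 3180 CPM in WT, and its part in the replication values was not tested. Of the 5 fits that left out a KO or G77S library, 4 lost Mcm7 (adjusted p up to 0.101, log2 fold change 1.98 to 2.33) and 2 lost Plk1 (up to 0.0877, 2.48 to 3.80). All 5 lost Cdc45 (up to 0.174, 1.19 to 1.25), Fen1 (up to 0.204, 1.73 to 2.28) and Ccnh (up to 0.216, -1.37 to -0.94). Of the polymerase partner, Fanconi and BRCA, and end resection and telomere lists, edgeR called 0 genes in any comparison. At most 4 of 9 (44.4%), 2 of 15 (13.3%) and 2 of 11 (18.2%) were at an unadjusted p under 0.05. Over all genes 20.0% and 20.7% reached this in the G77S comparisons with WT and KO. The polymerase partner share lay above the background there. DESeq2 called at most 3 of 9 (33.3%), 0 of 15 and 1 of 11 (9.09%, in KO versus WT). Limma called at most 4 of 9 (44.4%), 2 of 15 (13.3%) and 1 of 11 (9.09%). Both polymerase partner shares come from G77S comparisons and exceed the shares of all genes given above for these tools.

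**Figure D5:**
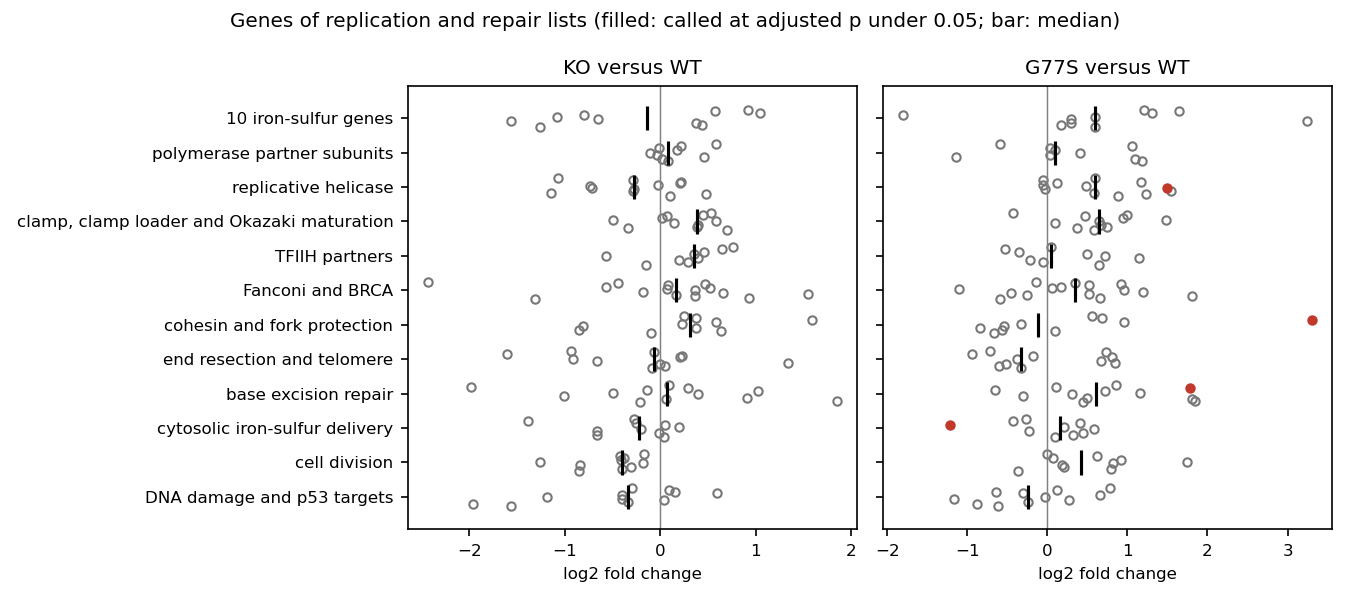
Log2 fold change (horizontal axis) of each tested gene of the 10 iron-sulfur genes and the 11 lists in KO versus WT and G77S versus WT; filled points passed an adjusted p of 0.05, bars are list medians, and Gadd45a is left out because it had 0 counts in WT. The 10 iron-sulfur genes have a median of -0.14 in KO versus WT and 0.59 in G77S versus WT, with no filled point.

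Among genes with a mean of at least 10 CPM, the profile nearest to each of the 10 was found by the mean absolute difference of centred log2 CPM over the 8 libraries, among 5718 candidates. Nthl1 was nearest to Mob2 (0.13), Prim2 to Fau (0.09), Brip1 to Ndc1 (0.17), Pole to Ccdc34 (0.20), Pold1 to Dppa3 (0.25) and Ercc2 to Cldn6 (0.26). Rtel1 was nearest to Wfdc15a, Dna2 to Zfp534 and Mutyh to Mppe1 (0.34 each), and Ddx11 to Ska2 (0.64). All profiles come from the same 8 libraries and share their depth and composition, and these likenesses are descriptions only.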

How the data were processed

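Each of the 8 RNA libraries was deposited as 1 gene table of expected counts, TPM, FPKM, length and effective length (per the file headers). Tools named in the submitters' processing notes are STAR 2.6.1c, RSEM 1.3.1, Trim Galore 0.4.5 and DESeq2 1.42.1, with the mm10 build, while their annotation release is not given in the sources used here. For TPM and FPKM the authors scaled values inside each library, and FPKM served only as an alternative to TPM in the subunit ratios. The other deposited columns are the abundance-weighted and effective lengths in bases, per the file headers, and their difference gave the fragment length.

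A GENCODE annotation of GRCm38 matched 55230 of 55471 gene identifiers. Rounded expected counts went into edgeR 4.0.16 (R 4.3.3) with TMM factors and its group-wise low-count filter. A single quasi-likelihood model covered the 8 libraries, its F test was adjusted by Benjamini-Hochberg over 13953 genes, and a call needs an adjusted p under 0.05. Alternatives were other scaling (RLE), the filter removed or tightened to 5 CPM in 2 libraries, only the groups compared, a replicate block, DESeq2 1.42.0, limma 3.58.1 on log2(TPM + 1) and log2(TPM + 0.1), each library left out, and, chosen after seeing the data, transcript length offsets. A limma fold change is on the log2(TPM + pseudocount) scale, which understates changes of low genes. The count fit was tested on simulated data first. Over the 3 comparisons it called 0% to 3.3% of genes changed 2-fold and 16.7% to 27.3% of those changed 4-fold. Of those changed 16-fold it called 54.7% to 64%, so many true changes are missed. Sequence motifs were read as cysteine codons in the longest coding transcript of each gene.

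The 10 genes and all lists were chosen with earlier results of these data known. Named are the 10 genes, Isca2, the nearest profile of each, and up to 4 called genes of each list, or the 2 most abundant where none was called. Ercc3, Klc3, Ciao2b, Mms19 and single lineage markers fall outside that rule and were chosen after their values were seen. A gene that this rule would name is not reported here.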

Additional observations from a re-analysis of the deposited data

How the results depend on the processing

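Over 415 recomputed fold changes of the 10 genes, 389 kept their direction and side of the threshold, 9 became calls, 17 turned sign and 0 lost a call. The 389 include DESeq2's Ercc2 values in KO versus WT and G77S versus KO, which have no adjusted p and kept their direction only. The number of the 10 called stayed 0 under all edgeR settings and single-library omissions, and was 1, 2 and 3 in G77S versus WT (DESeq2, limma with pseudocounts 1 and 0.1) and 1 and 2 in G77S versus KO (limma). The stricter filter kept 7 of the 10, without Pold1, Ercc2 and Ddx11, so those have no value there.

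Genes called over the whole table moved more. KO versus WT (17) became 547 without a filter, 60 with the stricter one, 11 with 2 groups only, 8 with the replicate block, 631 by DESeq2, 95 and 86 by limma, and 0 to 42 with a library left out. G77S versus WT (473) became 1336, 746, 1523 by DESeq2, 1466 and 1307 by limma, and 86 to 638. G77S versus KO (585) became 1411 without a filter, 1009 with 2 groups only, 1686 by DESeq2, 1849 and 1744 by limma, and 161 to 243. Limma on TPM shifted the median of all genes to 0.23 and 0.41 in G77S versus WT and 0.34 and 0.59 in G77S versus KO, and turned the split from 182 higher and 291 lower to 1178 and 288, and from 246 and 339 to 1543 and 306. Relative to that shift Nthl1 and Mutyh stayed higher in G77S versus WT.

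Sign turns were as follows, and the cause was not tested. In KO versus WT, Ddx11 gave 0.05 by limma with pseudocount 0.1 and ranged from -1.63 to 2.42 with a library left out, Brip1 from -0.97 to 0.21 and Pole from -0.73 to 1.08. In G77S versus WT, Rtel1 gave -0.08 with length offsets, and with a library left out Brip1 ranged from -0.03 to 1.15, Ddx11 from -2.35 to 1.42 and Pole from -0.26 to 0.38. In G77S versus KO, Pole gave 0.12 and 0.13 and Prim2 0.43 and 0.45 by limma, Dna2 gave -0.09 with length offsets, and with a library left out Pole ranged from -0.91 to 0.90, Prim2 from -0.36 to 0.26 and Dna2 from -0.18 to 0.90. Over settings that kept all 10 genes, their median lay between -0.84 and 0.44 in KO versus WT, 0.35 and 1.09 in G77S versus WT and 0.36 and 1.07 in G77S versus KO. The log2 difference of Pold1 to Pold2 in KO versus WT ranged from -1.86 to -0.46 and that of Pole to Pole2 from -0.09 to 1.38.

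Same-numbered libraries did not clearly deviate together (correlations from -0.075 to 0.132, beside -0.19 to 0.127 for differently numbered ones). Deviations were taken from means of 2 or 3 libraries, so this check cannot exclude pairing by number. With the replicate block 0 of the 10 were called in each comparison, and 8, 411 and 600 genes over all. Under the block Xrcc1 and Gadd45a in G77S versus WT and Cdc45 in G77S versus KO were not called (adjusted p = 0.0775, 0.0851 and 0.0805). Depth limits Ercc2 and Pold1, which had at most 19 and 28 counts in a library.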

Other observations

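By edgeR none of the 11 lists held a call in KO versus WT, and their most abundant genes had the following log2 fold changes there (adjusted p from 0.115 to 1). Among replication genes they were 0.58 for Prim1 and 0.18 for Pole4 of the polymerase complexes, -0.27 for Mcm6 and -0.29 for Gins4 of the helicase, and 0.70 for Pcna and 0.14 for Rfc4 of the clamp and its loader. Among repair genes they were 0.65 for Ccnh and 0.35 for Gtf2h5 of TFIIH, 0.07 for Fancl of the Fanconi and BRCA list, and 1.02 for Apex1 and -0.14 for Polb of base excision repair. Tipin and Esco2 of cohesin and fork protection were at 0.37 and 0.58, and Terf1, which binds telomeres, was at 0.23. Rad50 had a mean of 48.0 CPM in both groups. Ciao2a and Nubp2, which act in cluster delivery, were at 0.05 and -0.66, Ccnb1 and Birc5 of cell division at -0.84 and -0.17, and Ccng1 and Bax, both p53 targets, at -0.34 and 0.04.

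In G77S versus WT the same genes of the lists without an edgeR call were at -0.59 (Prim1), 0.10 (Pole4), 0.58 (Pcna), 0.09 (Rfc4), -0.53 (Ccnh), 0.49 (Gtf2h5), -1.10 (Fancl), -0.18 (Terf1), -0.52 (Rad50) and 0.18 (Ccnb1), with Birc5 at a mean of 620 CPM in WT and 619 CPM in G77S. In G77S versus KO, Prim1 was at -1.16, Pole4 at -0.08, Fancl at -1.16, Tipin at 0.31, Esco2 at 0.38, Terf1 at -0.40, Rad50 at -0.52, Apex1 at -0.30, Polb at -0.51, Ccng1 at 0.10 and Bax at 0.23. None of these values passed edgeR's test. Other tools called genes of some of those lists in G77S versus WT. DESeq2 called 4 of 11 clamp and Okazaki genes (36.4%, beside 11.4% of all genes). Limma called 6 of these 11 with either pseudocount (54.5%, beside 10.5% and 9.37%). On log2(TPM + 1) limma called 4 of 10 cell division genes (40.0%) and 2 of 9 TFIIH partners (22.2%), beside 10.5% of all genes. DESeq2 called 1 cell division gene and 1 TFIIH partner, shares near its 11.4% of all genes.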
